A study of Mus musculus with 8 samples.

Results

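The CXC chemokines are small secreted proteins, named for a single residue set between a pair of cysteines, that bind G protein-coupled receptors on leukocytes and direct their migration. Described here are 10 of them, Cxcl1, Cxcl2, Cxcl5, Cxcl9, Cxcl10, Cxcl13, Cxcl14, Cxcl15, Cxcl16 and Cxcl17, of 33,027 genes in the deposited matrix. They were chosen by name, and Cxcl12 was left aside. Cxcl1, Cxcl2 and Cxcl5 signal through Cxcr2 and recruit neutrophils, and Cxcl15, also called lungkine, is a lung epithelial chemokine of the same neutrophil-attracting group. Cxcl9 and Cxcl10 are induced by interferon and attract T cells through Cxcr3. Cxcl13 attracts B cells through Cxcr5, Cxcl14 is made constitutively by stroma and epithelium, Cxcl16 is a membrane-bound ligand of Cxcr6 that can be shed by the proteases Adam10 and Adam17, and Cxcl17 is a mucosal chemokine of the airways. In the lung, ligands of the Cxcr2 group are known as early products of macrophages and epithelium after smoke or bacterial stimuli.

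Single-cell RNA sequencing was performed on right-lung cells of 8 Sftpc-CreERT2-mTmG mice on a C57BL/6 background. For 10 months, 4 of them (C2, C5, D2 and D5) breathed cigarette smoke (CS) and 4 littermates (F1, F3, M1 and M3) room air (RA). All mice of both groups had received tamoxifen as young adults before the exposure, which activates Cre under the Sftpc promoter of alveolar type 2 (AT2) cells and switches their mTmG reporter, and all were harvested 1 day after the last exposure. The lungs were digested with enzymes, and the suspension was sorted on CD45 and remixed to 10% CD45+ and 90% CD45- cells. Shares of immune cells thus depended on the mix, and they still varied between libraries. B cells, for example, were 1.48% of cells in F1 and 13.6% in M3. The share of a gene's transcripts held by a cell type, given below, also depends on this mix and on the depth of the type. Each of the 4 lanes held 1 CS and 1 RA mouse. A level is given throughout as the number of transcripts per 10,000 of a cell, averaged over the cells of one annotated type in one mouse, and n is the number of mice. Levels were not compared between genes.

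The 8 libraries held 2,553 to 6,371 cells each, and 40,074 in all, in 32 annotated types. Median depth was 4,557 to 6,316 transcripts per cell in the CS libraries and 4,254 to 6,473 in the RA libraries. Pairs of libraries shared 1 to 14 cell barcodes, at most 0.347% of the smaller library. In 2 CS libraries labelled male, Xist was found at 7.83 and 8.34 per 10,000, and in the other two CS libraries, labelled female, the Y-linked Ddx3y was found at 0.925 and 1.08. The sex labels of all 4 CS libraries therefore go against their transcripts, those of the RA libraries do not, and sex is used below only as a labelled term. The defining markers Marco, Chil3 and Ear2 were highest in alveolar macrophages, S100a8, S100a9 and Retnlg in the cells labelled NG (neutrophils), and Foxj1 and Tmem212 in ciliated cells. Ace, a marker of non-classical monocytes, was highest in arterial endothelium, the club marker Scgb3a2 in goblet cells, the arterial marker Bmx in basal cells, and the cDC2 markers Cd209a and Flt3 in other dendritic cells. The cells labelled Mast held the basophil protease gene Mcpt8 beside Cpa3, and their label is kept. In RA mouse F1, the summed level of the 3 alveolar macrophage markers was 239 in classical monocytes, against at most 31.5 in the other seven mice, and 89.1 in neutrophils, against at most 1.82.

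On GRCm38, 7 of the 10 genes lie on chromosome 5. Cxcl5 (chr5:90759360-90761624), Cxcl15 (chr5:90794534-90803067), Cxcl1 (chr5:90891241-90893115) and Cxcl2 (chr5:90903871-90905938) are transcribed in the same direction within 147 kb, with 10.8 kb between Cxcl1 and Cxcl2. Cxcl9 (chr5:92321347-92328079) and Cxcl10 (chr5:92346638-92348889) lie 18.6 kb apart on the opposite strand, and Cxcl13 lies at chr5:95956951-95961068. Cxcl14 is at chr13:56288643-56296551, Cxcl16 at chr11:70453983-70459984 and Cxcl17 at chr7:25400053-25412886. A gene on the other strand overlaps Cxcl10 (Art3), Cxcl16 (Zmynd15), Cxcl17 (4732471J01Rik) and Cxcl15 (the short Gm24322). Whether strand was used in counting is not given in the sources used here, so that reads of such partners cannot be told apart.

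The promoters of Cxcl1, Cxcl2 and Cxcl10 are shown because these 3 genes were lower together in alveolar macrophages of CS mice. RefSeq promoters (GRCm38.p6) were found for 7 of the 10 genes, and the 250 bases before the start of each were searched on both strands for the consensus of NF-kB, the transcription factor of acute inflammatory responses. It was found in Cxcl1, Cxcl2 and Cxcl10 and in none of Cxcl9, Cxcl13, Cxcl14 and Cxcl15, and it was present in 3.90% of 32,851 promoters of the same length. Of the genes without it, Cxcl15 alone was tested in alveolar macrophages, and Cxcl16, tested there too, had no promoter to search. The split is thus no comparison with the smoke result. The bases from 200 to 31 before the start are printed 5′ to 3′ on the strand of the gene, with the consensus in capitals. Those of Cxcl1 are chr5:90891045-90891214 (plus strand), those of Cxcl2 chr5:90903699-90903868 (plus strand) and those of Cxcl10 chr5:92348920-92349089 (minus strand). Distances are counted from the RefSeq starts, which for Cxcl1 and Cxcl2 lie downstream of the gene starts given above.
Cxcl1: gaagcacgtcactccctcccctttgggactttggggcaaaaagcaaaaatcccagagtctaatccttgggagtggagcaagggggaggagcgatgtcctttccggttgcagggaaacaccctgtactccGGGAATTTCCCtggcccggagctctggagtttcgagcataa
Cxcl2: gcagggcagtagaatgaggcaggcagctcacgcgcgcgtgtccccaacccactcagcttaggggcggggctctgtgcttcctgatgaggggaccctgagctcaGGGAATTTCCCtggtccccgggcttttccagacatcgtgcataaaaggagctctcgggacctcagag
Cxcl10: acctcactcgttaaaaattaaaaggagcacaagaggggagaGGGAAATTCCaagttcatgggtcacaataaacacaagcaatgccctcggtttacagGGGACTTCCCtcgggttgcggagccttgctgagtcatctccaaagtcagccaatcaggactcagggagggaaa
The match lies 71 to 61 bases before the start in Cxcl1 and 97 to 87 bases in Cxcl2, where matches on both strands overlap and share the same 11 letters, and at 159 to 150 and 103 to 94 bases in Cxcl10. The AP-1 motif TGANTCA was found 74 to 68 bases before the start of Cxcl10 alone of the 7, and in 6.75% of all promoters. The interferon response core GAAANNGAA was found in Cxcl9, Cxcl10 and Cxcl14 and in 7.13% of all promoters. TATAAA lay 27 to 22 bases before the start of Cxcl15, was also found in Cxcl9 and Cxcl13, and was found in 12.4% of all promoters. These matches are a description of the letters in the windows.

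The chemokines were then placed by source cell. Levels were set in order over the 22 types with at least 20 cells in at least 6 mice, and neighbours in the order, and the leading type against each of the next, were compared within mice by an exact sign-flip permutation test. In all, 90 pairs of types were tested for the 10 genes and 41 had an adjusted p under 0.05. The order was taken from the same mice, so that the direction of most pairs was set by it. The p values describe how evenly a difference held over the mice, and are no independent test of the order. The smallest unadjusted p that 8 mice allow is 0.0078.

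**Figure D1:**
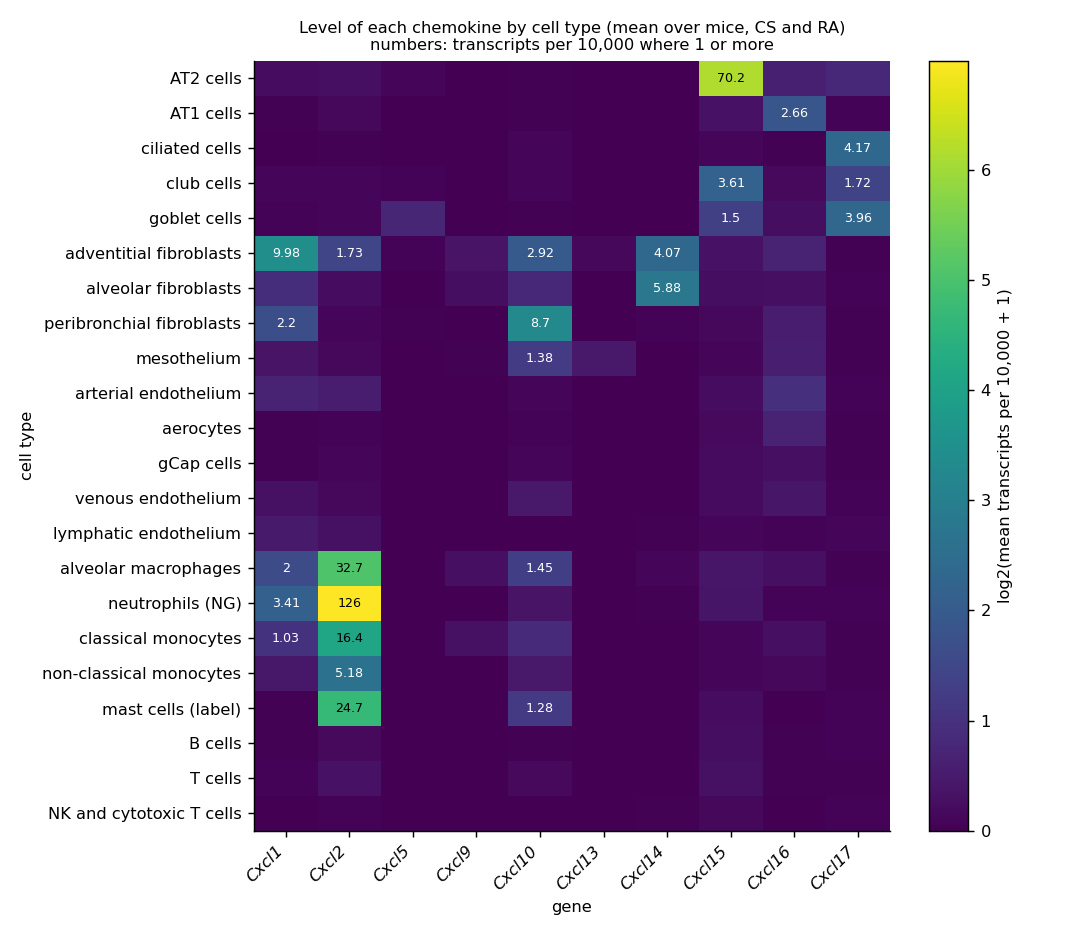
Level of the 10 chemokines (columns) in the 22 cell types (rows), as the mean over CS and RA mice; colour gives log2(transcripts per 10,000 + 1), and levels of 1 or more are printed in the cells. Cxcl15 peaked in AT2 cells at 70.2 and Cxcl2 in neutrophils at 126, whereas Cxcl5, Cxcl9 and Cxcl13 stayed under 1 in every type shown.

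Among the neutrophil attractants, Cxcl1 was highest in adventitial fibroblasts, at 9.98 ± 6.76 per 10,000 (SD, n = 8). These cells were 3.5% of all cells and held 65.5% of all Cxcl1 transcripts. Their level was 2.92-fold that of neutrophils (3.41) and 4.99-fold that of alveolar macrophages (2.0), and it was the higher one in 8 of 8 mice in both comparisons (adjusted p = 0.0234 each, exact permutation). Against peribronchial fibroblasts (2.20), it was higher in 6 of 6 mice, with an adjusted p of 0.0586, the unadjusted p of 0.0312 being the smallest that 6 mice allow. Neutrophils, peribronchial fibroblasts, alveolar macrophages, classical monocytes (1.03) and alveolar fibroblasts (0.889) followed in this order, and no neighbours among them differed beyond their spread (adjusted p = 0.128 to 0.988, exact permutation).

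Cxcl2 was a transcript of myeloid cells. Neutrophils held 126 ± 40.8 per 10,000 (SD, n = 8), 3.86-fold the 32.7 ± 17.8 of alveolar macrophages and higher in 8 of 8 mice (adjusted p = 0.0234, exact permutation). They held 51.5% of all Cxcl2 transcripts. Alveolar macrophages and the cells labelled Mast (24.7 ± 6.24, n = 7) did not differ beyond their spread (adjusted p = 0.900, exact permutation). The Mast cells were above classical monocytes (16.4) in 7 of 7 mice (adjusted p = 0.0343, exact permutation), and the level in non-classical monocytes was 5.18. Adventitial fibroblasts, at 1.73, were the first non-myeloid type in the order. Interstitial macrophages (labelled M, 101 cells in all) were too few for the order, and held 75.0 as the mean over mice.

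Cxcl5 was found mainly in goblet cells, at 0.685 ± 0.706 per 10,000 (SD, n = 8). These were 1.27% of all cells and held 73.7% of its transcripts, and their level was above that of AT2 cells (0.0618) in 7 of 8 mice (adjusted p = 0.0343, exact permutation). Cxcl15 was an AT2 transcript. AT2 cells held 70.2 ± 7.59 per 10,000 (SD, n = 8), 19.5-fold the 3.61 ± 0.833 of club cells, which in turn were above goblet cells (1.5 ± 0.677), each in 8 of 8 mice (adjusted p = 0.0234, exact permutation). AT2 cells held 86.0% of all Cxcl15 transcripts. In the 19 other types of the order, Cxcl15 lay between 0.0821 and 0.335, in B and T cells (0.207 and 0.232) as in endothelium.

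Of the interferon-induced pair, Cxcl10 was highest in peribronchial fibroblasts, at 8.70 ± 3.10 per 10,000 (SD, n = 6), followed by adventitial fibroblasts (2.92), alveolar macrophages (1.45) and mesothelium (1.38). The level in peribronchial fibroblasts was above that in adventitial fibroblasts in 5 of 6 mice and above that in alveolar macrophages in 6 of 6 (adjusted p = 0.106 and 0.0586, exact permutation). With mice of at least 5 cells of a type allowed, interstitial macrophages led for Cxcl10, with 9.26 as the mean over mice of their 101 cells in all. Cxcl9 stayed under 0.3 in each of the 22 types, and the order of its first 4, adventitial fibroblasts (0.291), classical monocytes (0.240), alveolar macrophages (0.209) and alveolar fibroblasts (0.186), could not be resolved (adjusted p = 0.693 to 1, exact permutation). The level of alveolar fibroblasts came from CS mouse C2 (1.47), where 1.69% of 59 such cells held the transcript. In the 40 mature dendritic cells, too few to be ordered, Cxcl9 was 1.38.

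The B cell attractant Cxcl13 was found mainly in mesothelium, the cell layer over the lung surface, at 0.384 ± 0.553 per 10,000 (SD, n = 7), and 68.0% of its transcripts came from these cells. CS mouse C2, whose 9 mesothelial cells were too few to enter and held 7.08, is not in that mean. Interstitial macrophages, too few to be ordered (3 to 29 cells a mouse), held 1.93 on average over 8 mice and led for Cxcl13 where mice with at least 5 cells of a type were allowed. Among the types in the order, Cxcl13 was higher in mesothelium than in alveolar macrophages in 7 of 7 mice (adjusted p = 0.0343, exact permutation), but not beyond the spread against adventitial fibroblasts (0.104, adjusted p = 0.424). Cxcl14 was a stromal transcript. Alveolar fibroblasts held 5.88 ± 1.92 (SD, n = 8) and adventitial fibroblasts 4.07 ± 0.861, a difference that held in 7 of 8 mice (adjusted p = 0.0343, exact permutation). The next type, alveolar macrophages, held 0.0955 (adjusted p = 0.0234 against adventitial fibroblasts, exact permutation). Alveolar fibroblasts gave 54.7% and adventitial fibroblasts 41.2% of all Cxcl14 transcripts. Pericytes, too few to be ordered, held 2.65.

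Cxcl16 was spread over epithelium, endothelium and stroma. AT1 cells, the flat cells of the gas exchange surface, held 2.66 ± 0.331 per 10,000 (SD, n = 8), 2.89-fold the 0.921 of arterial endothelium (higher in 8 of 8 mice, adjusted p = 0.0234, exact permutation). Below these, adventitial fibroblasts (0.596), aerocytes (labelled EC_capillary_A, 0.578), AT2 cells (0.523) and mesothelium (0.494) did not differ as neighbours (adjusted p = 0.420 to 0.900, exact permutation). Mature dendritic cells (5.82) and interstitial macrophages (4.34) were higher on average but too few to be ordered. Cxcl17 was an airway transcript. Ciliated cells (4.17 ± 0.861, n = 8) and goblet cells (3.96 ± 0.410) did not differ beyond their spread (adjusted p = 0.824, exact permutation), whereas goblet cells were above club cells (1.72 ± 0.290), and these above AT2 cells (0.71 ± 0.332), in 8 of 8 mice (adjusted p = 0.0234 each).

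CS mice were then compared with RA mice in each of the 22 types by limma on log2(level + 1), for every gene detected in 10% or more of the cells in one of the groups. Of the 220 pairs of a chemokine and a type, 50 passed this filter, and 5 had an adjusted p under 0.05. Of these, 1 was higher and 4 were lower in CS. Over all genes and types, 2,208 of 173,532 tests were called, 1.27%, and 667 with the lane as a block. An unadjusted p under 0.05 was found in 17 of the 50 pairs, 3 higher and 14 lower, and in 15.2% of all tests, 8.89% higher and 6.29% lower. In 10 of the 92 pairs with a level of at least 0.1 in either group, the mice of both groups did not overlap, 8 lower (8.70%) and 2 higher (2.17%) in CS, against 4.39% lower and 5.71% higher over all 202,006 pairs of a gene and a type at that level. Cxcl9 and Cxcl13 passed the filter in no type. Of the 50 pairs, 13 passed it through 1 group only, 11 through the RA and 2 through the CS mice, so that the counts and directions of these pairs are partly set by the filter. Among the called pairs, these were Cxcl10 in alveolar macrophages and Cxcl16 in gCap cells, both lower in CS and passing through the RA mice.

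**Figure D2:**
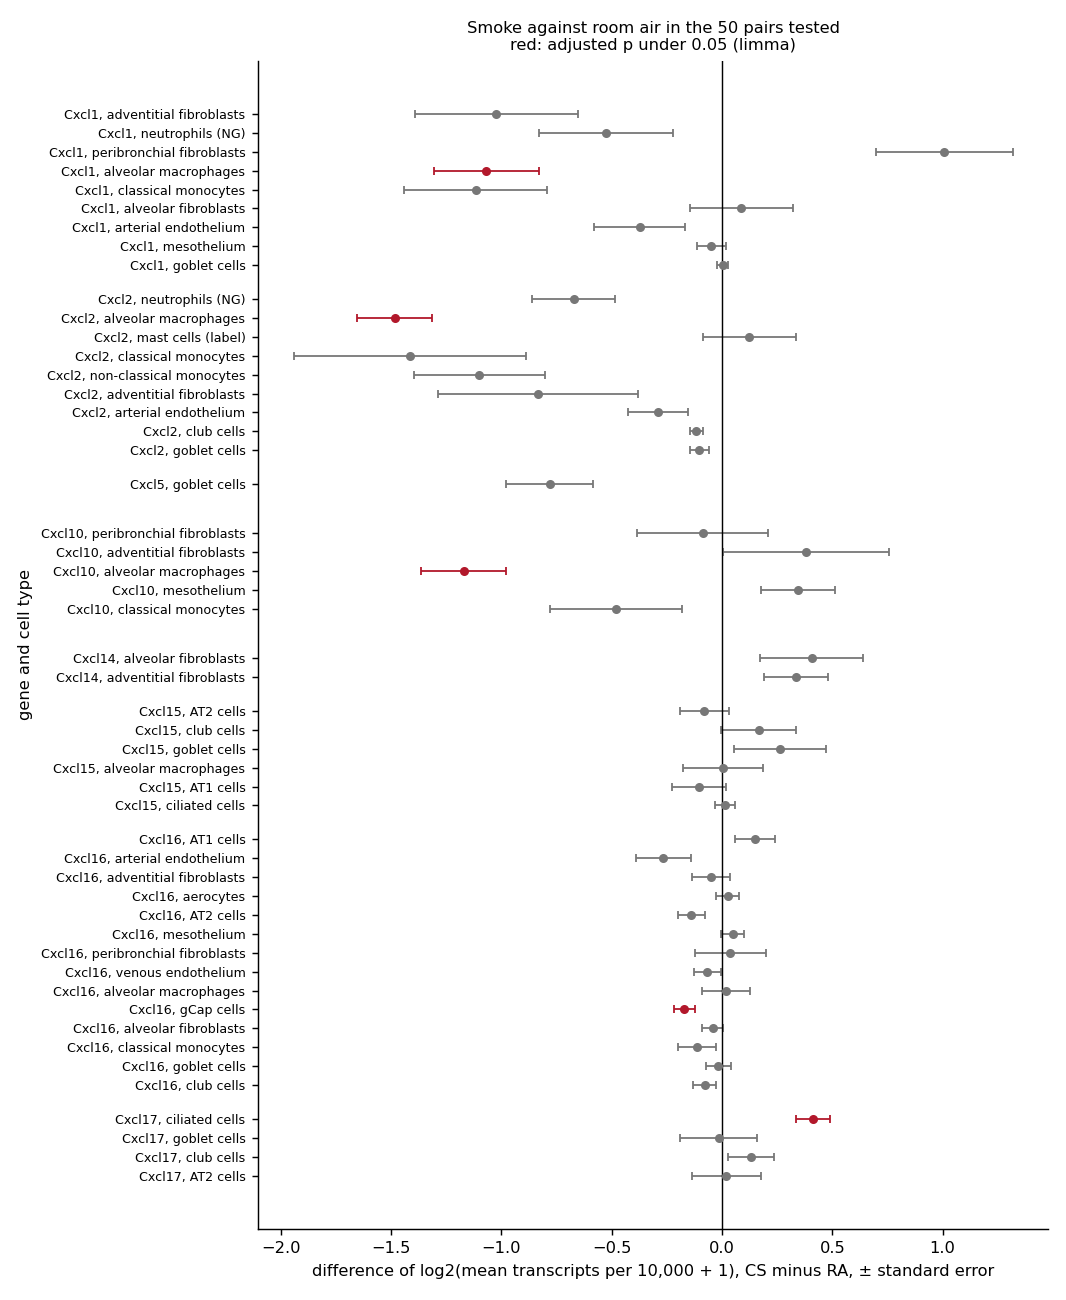
Difference between CS and RA mice in log2(level + 1), with its standard error, for the 50 pairs of chemokine and cell type that were tested by limma; pairs with an adjusted p under 0.05 are in red. The 3 largest called differences, all below 0, are those of Cxcl2, Cxcl10 and Cxcl1 in alveolar macrophages, and the one called pair above 0 is Cxcl17 in ciliated cells.

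In alveolar macrophages, the resident phagocytes of the airspaces, Cxcl2, Cxcl10 and Cxcl1 were lower in CS mice. Cxcl2 was 13.9, 16.4, 15.3 and 21.6 per 10,000 in CS mice C2, C5, D2 and D5, and 51.9, 55.6, 38.0 and 48.9 in RA mice F1, F3, M1 and M3. Every CS mouse thus lay below every RA mouse. The means were 16.8 ± 3.35 and 48.6 ± 7.57 (SD, n = 4 each), a ratio of 0.345, and the log2 difference was -1.48 (standard error 0.17, adjusted p = 0.000137, limma; exact permutation p = 0.0286, the smallest that 4 against 4 mice allow). The call held in each of 18 alternatives, with an adjusted p of at most 0.0051. The median over single alveolar macrophages was 1.6 to 5.72 in CS mice and 18.2 to 44.9 in RA mice, and these ranges did not overlap either.

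Cxcl10 was 0.158, 0.620, 0.483 and 0.613 per 10,000 in alveolar macrophages of CS mice C2, C5, D2 and D5, and 2.26, 3.92, 1.11 and 2.41 in RA mice F1, F3, M1 and M3. In CS mice the transcript was held by 2.38% of 42 such cells in C2, 2.5% of 40 in C5, 10.2% of 49 in D2 and 12.8% of 47 in D5. In RA mice 19.6% to 40.9% of the cells held it. The groups did not overlap in level, with the nearest mice at 0.620 and 1.11. The means were 0.468 ± 0.216 and 2.42 ± 1.15 (SD, n = 4 each), and the log2 difference was -1.17 (standard error 0.192, adjusted p = 0.00641, limma). Cxcl1 was 0.766, 0.206, 1.27 and 1.38 in the CS mice and 1.53, 2.02, 4.89 and 3.93 in the RA mice, in the same order. Here the groups nearly touched, at 1.38 and 1.53. The means were 0.905 ± 0.536 and 3.09 ± 1.58 (SD, n = 4 each), and the difference on the log2 scale was -1.07 (standard error 0.236, adjusted p = 0.0454, limma). Cxcl10 was called in 16 of 18 alternatives, and its adjusted p was 0.0640 without CS mouse C2 and 0.0597 with no filter on genes. Cxcl1 was called in 7 of 18, with an adjusted p of up to 0.220. It was 0.146, 0.159 and 0.0663 without CS mouse C2, C5 or D2, and 0.0894 and 0.166 without RA mouse M1 or M3.

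**Figure D3:**
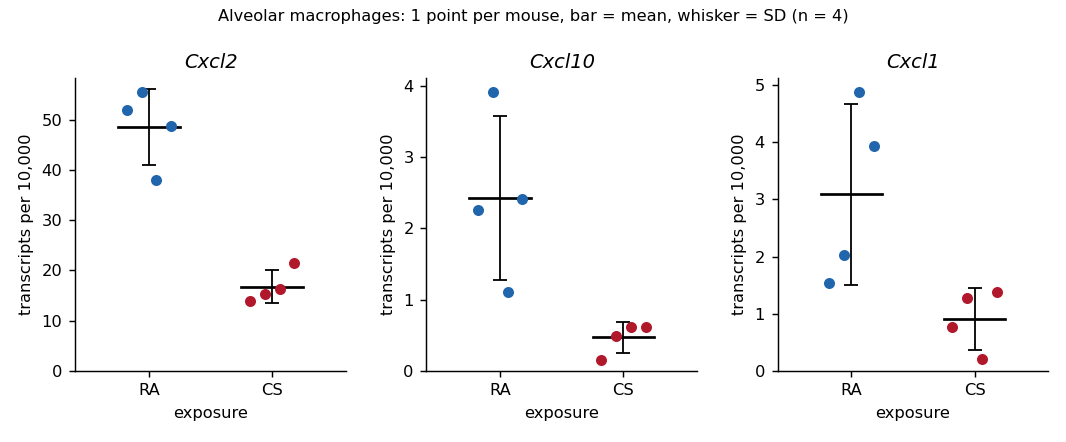
Cxcl2, Cxcl10 and Cxcl1 in alveolar macrophages of RA (blue) and CS (red) mice, in transcripts per 10,000; each point is a mouse, the bar is the mean and the whisker the SD of 4 mice. All 4 CS mice lie below all 4 RA mice in each panel, the nearest mice being at 21.6 and 38.0 for Cxcl2, 0.620 and 1.11 for Cxcl10 and 1.38 and 1.53 for Cxcl1.

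The 3 genes were among 23 of 7,650 genes called lower in alveolar macrophages, 0.301%. Of the 3, Cxcl10 entered this count through the RA mice only, and its call was lost with no filter on genes. The remaining members tested in these cells were Cxcl15 (0.361 in CS and 0.309 in RA) and Cxcl16 (0.240 and 0.221), with adjusted p of 0.995 and 0.969 by limma. Of 15 inducers of these chemokines and NF-kB genes, 11 were tested in alveolar macrophages and 4 were lower in CS, none higher. Their median log2 difference was -0.72, against -0.0040 over all genes tested, and 10 of the 11 had an unadjusted p under 0.05, against 9.9% of all genes in these cells. The list was chosen with earlier results of these data known, so that these counts are a description and no test of the list. Its gene Zfp36 is also among the digestion response genes given below. Nfkbia, the NF-kB inhibitor that NF-kB itself induces, was 6.77 ± 0.894 in CS and 17.5 ± 3.63 in RA (SD, n = 4 each, log2 difference -1.24, adjusted p = 0.0015, limma). The cytokine Tnf was 4.12 ± 1.10 and 10.1 ± 2.15 (-1.12, adjusted p = 0.00641), the regulator Nfkbiz 1.52 ± 0.910 and 4.11 ± 1.31 (-1.06, adjusted p = 0.0418), and the adhesion molecule Icam1 1.30 ± 0.477 and 2.96 ± 0.801 (-0.78, adjusted p = 0.0454). Il6 did not reach an unadjusted p of 0.05 (0.238 in CS and 0.333 in RA). Of the interferon genes, 3 were tested in these cells and none was called, with a median log2 difference of 0.20.

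The alveolar macrophages numbered 40 to 49 per CS mouse and 31 to 112 per RA mouse, so that each level rests on few cells. Their median depth overlapped between groups (3,252 to 9,325 transcripts in CS and 5,082 to 9,917 in RA), as did the summed level of the 3 neutrophil markers (0.685 to 1.17 and 0.205 to 1.27), of the 3 interstitial macrophage markers (0.210 to 0.365 and 0.179 to 0.247) and of the 3 alveolar macrophage markers (152 to 195 and 127 to 303). The mitochondrial share was 1.04% to 2.07% in CS and 0.790% to 1.40% in RA. Of 13 genes that respond to tissue digestion, 11 were lower in CS by mean and 1 was called lower, with a summed level of 56.1 to 72.9 in CS and 71.6 to 99.9 in RA. The 4 endothelial genes summed to 2.840 to 4.25 in CS and 0.890 to 2.838 in RA, so that the ranges met without overlap, and none of the 4 was called. The part of these in the result was not tested. In the 46.8% to 80.6% of alveolar macrophages per mouse in which no neutrophil marker was counted, the log2 differences were -1.41 for Cxcl2 (adjusted p = 0.0051), -1.42 for Cxcl10 (adjusted p = 0.00609) and -1.16 for Cxcl1 (adjusted p = 0.108, limma), an alternative chosen after seeing the data.

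Cxcl2 was tested in 9 types, and it was called in alveolar macrophages alone. Its log2 difference was below 0 in 8 of the 9, and its median over the 9 types was -0.67. The 9 types come from the same mice and are not independent directions. Passing the filter through the RA mice alone also favours a value below 0. In neutrophils, its main source, it was 67.9, 90.9, 118 and 112 per 10,000 in CS mice C2, C5, D2 and D5, and 143, 198, 118 and 161 in RA mice F1, F3, M1 and M3. The groups overlapped only through CS mouse D2 and RA mouse M1. The means were 97.3 ± 22.8 and 155 ± 33.9 (SD, n = 4 each, log2 difference -0.67, standard error 0.187, adjusted p = 0.206, limma; exact permutation p = 0.0571). The difference in alveolar macrophages was larger than that in neutrophils by 0.81 on the log2 scale (exact permutation p = 0.0286, adjusted p = 0.0952 over the 10 genes). No gene at all was called in neutrophils by limma, of 2,756 tested, and 368 had an unadjusted p under 0.05. Nfkbia was 38.8 ± 13.1 in CS and 66.9 ± 3.56 in RA neutrophils (adjusted p = 0.18, limma). Median depth per neutrophil was 1,734 to 2,528 transcripts in CS and 2,175 to 2,986 in RA, and its part in the result was not tested.

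In classical monocytes, Cxcl2 was 2.61 to 9.77 in CS mice and 6.84, 13.2 and 15.7 in RA mice M3, M1 and F3, whereas RA mouse F1, with its high alveolar macrophage markers in these cells, had 68.7. The log2 difference was -1.41 (standard error 0.53, adjusted p = 0.403, limma). Without RA mouse F1 it was -0.79 (adjusted p = 0.527, limma), and in neutrophils without that mouse it was -0.70 (adjusted p = 0.268, limma). The myeloid genes Lyz2, S100a8, S100a9, Il1b, Tyrobp and Fcer1g summed to 227 to 251 in CS and 280 to 317 in RA classical monocytes, without overlap. Their part in the result was not tested. Cxcl2 in non-classical monocytes of 4 CS mice was 2.85 ± 1.11, and in those of 3 RA mice 8.29 ± 5.73 (SD, log2 difference -1.10, adjusted p = 0.686, limma), with RA mouse F1, which had 2 such cells, not used. Without RA mouse M1, which left 2 RA mice, the difference was -1.62 and was called (adjusted p = 0.016, limma). The cells labelled Mast held 25.2 ± 2.91 in 4 CS and 24.1 ± 10.2 in 3 RA mice (adjusted p = 0.890, limma). In AT1 cells (0.0307 and 0.173 on average), where Cxcl2 did not pass the filter, and in club cells (0.0361 and 0.124), each CS mouse was below each RA mouse. The share of club cells that held Cxcl2 overlapped, at 8.72% to 13.5% in CS and 8.11% to 11.3% in RA mice. The AT1 value of RA mouse M1, 0.414, was far from those of the other 3 RA mice, 0.0891 to 0.0982, which were under 0.1. The neutrophil markers summed to 0.0282 to 0.0532 in CS and 0.0221 to 1.75 in RA AT1 cells. The goblet markers summed to 0.976 to 2.31 in CS and 2.62 to 3.91 in RA club cells, without overlap. The part of both lists in the result was not tested.

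**Figure D4:**
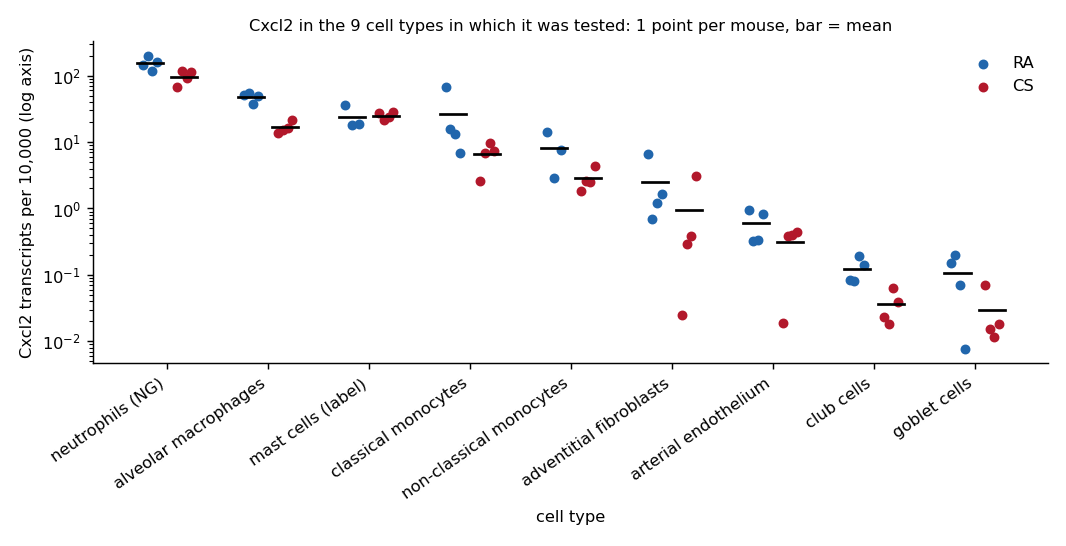
Cxcl2 in the 9 cell types in which it was tested, in transcripts per 10,000 on a log axis; each point is an RA (blue) or CS (red) mouse and the bar is the mean. The groups are apart in alveolar macrophages and in the low levels of club cells, overlap by 2 mice in neutrophils, and cover each other in the cells labelled Mast.

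Outside alveolar macrophages, no difference of Cxcl1 was called. In adventitial fibroblasts, its main source, Cxcl1 was 2.46, 4.93, 7.64 and 9.67 per 10,000 in CS mice C2, C5, D2 and D5, and 24.2, 6.52, 14.1 and 10.3 in RA mice F1, F3, M1 and M3. The CS mice were lower on average, but RA mouse F3 lay among them. The means were 6.18 ± 3.15 and 13.8 ± 7.62 (SD, n = 4 each, log2 difference -1.02, standard error 0.371, adjusted p = 0.135, limma). In peribronchial fibroblasts the direction was the opposite, with 3.4, 1.45 and 4.97 in CS mice C5, D2 and D5 and 1.90, 0.159 and 1.35 in RA mice F1, F3 and M1 (log2 difference 1.01, standard error 0.309, adjusted p = 0.453, limma). With the lane as a block, this difference was 0.99 and was called (adjusted p = 0.0419, limma), but only 2 lanes held both mice for these cells, and the pair passed the filter only through the CS mice. Neutrophils held 2.82 ± 1.99 in CS and 4.01 ± 1.06 in RA mice (adjusted p = 0.484), and classical monocytes 0.194 ± 0.279 and 1.87 ± 1.54 (adjusted p = 0.323). Without RA mouse F1 these adjusted p were 0.648 and 0.468 by limma. In venous endothelium (0.0877 and 0.399) and club cells (0.0280 and 0.13), where Cxcl1 did not pass the filter, each CS mouse was below each RA mouse. The digestion response genes summed to 116 to 149 in CS and 162 to 227 in RA venous endothelium, and the goblet markers to 0.976 to 2.31 and 2.62 to 3.91 in club cells, also without overlap. Their part in the result was not tested.

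Cxcl5 in goblet cells was 0.147, 0.0974, 0.0161 and 0.610 per 10,000 in CS mice C2, C5, D2 and D5, and 0.342, 1.92, 0.798 and 1.55 in RA mice F1, F3, M1 and M3. CS mouse D5 lay above RA mouse F1 alone. The means were 0.218 ± 0.267 and 1.15 ± 0.714 (SD, n = 4 each, log2 difference -0.78, standard error 0.198, adjusted p = 0.131, limma; exact permutation p = 0.0571). Without RA mouse F1 the adjusted p was 0.0332. The levels rest on 23 to 71 goblet cells per CS mouse and 25 to 137 per RA mouse, whose goblet markers Muc5b and Bpifb1 summed to 35.3 to 57.9 in CS and 45.6 to 69.7 in RA. The other epithelial member of the neutrophil-attracting group, Cxcl15, was called in none of the 6 types tested. AT2 cells of CS mice held 68.3 ± 8.89 and those of RA mice 72.0 ± 6.79 (SD, n = 4 each, log2 difference -0.08, standard error 0.112, adjusted p = 0.904, limma), with all 8 mice between 56.2 and 80.2. Club cells held 3.85 ± 0.713 and 3.37 ± 0.979 (adjusted p = 0.766), and goblet cells 1.71 ± 0.698 and 1.29 ± 0.682 (adjusted p = 0.613).

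Cxcl17 was higher in ciliated cells of CS mice. It was 4.95, 4.19, 5.14 and 5.32 per 10,000 in CS mice C2, C5, D2 and D5, and 3.35, 3.18, 3.72 and 3.48 in RA mice F1, F3, M1 and M3, with no overlap. The means were 4.90 ± 0.494 and 3.43 ± 0.227 (SD, n = 4 each), and the log2 difference was 0.41 (standard error 0.0771, adjusted p = 0.0191, limma), among 306 of 11,147 genes called higher in ciliated cells, 2.75%. In goblet cells, Cxcl17 was 4.77, 3.57, 3.66 and 3.77 in the CS mice and 4.23, 3.97, 4.13 and 3.59 in the RA mice, in the same order. The goblet means were 3.95 ± 0.559 and 3.98 ± 0.280 (adjusted p = 0.979), those of club cells 1.83 ± 0.147 and 1.6 ± 0.373 (adjusted p = 0.687) and those of AT2 cells 0.700 ± 0.176 and 0.719 ± 0.475 (adjusted p = 0.987). The difference in ciliated cells exceeded that in goblet cells by 0.43 on the log2 scale (exact permutation p = 0.0286, adjusted p = 0.0952 over the 10 genes). The call held in 14 of 19 alternatives. It was lost with the lane as a block (adjusted p = 0.0691), with no filter on genes (0.0637) and without CS mouse C2 (0.0582), D2 (0.0563) or D5 (0.0656). Beside it, the 2 goblet markers in ciliated cells summed to 0.0310 to 0.113 in CS and 0.0266 to 0.211 in RA, and the 4 club genes to 42.6 to 74.1 and 31.3 to 60.0, 1 of them called higher. The digestion response genes summed to 52.1 to 125 in CS and 88.9 to 134 in RA, 2 of them called lower, and the 6 AT2 genes to 0.819 to 3.06 and 0.538 to 0.948. The part of these in the result was not tested. Without ciliated cells that held a goblet marker, an alternative chosen after seeing the data, the difference was 0.42 (adjusted p = 0.0171).

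**Figure D5:**
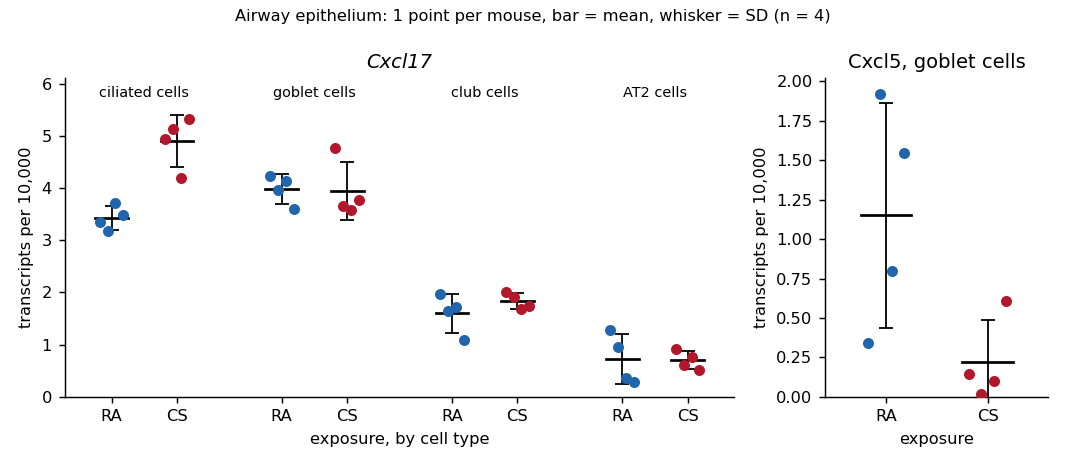
Left, Cxcl17 in ciliated, goblet, club and AT2 cells, and right, Cxcl5 in goblet cells, of RA (blue) and CS (red) mice, in transcripts per 10,000; each point is a mouse, the bar is the mean and the whisker the SD of 4 mice (cut at 0). Groups are apart for Cxcl17 in ciliated cells (4.19 or more against 3.72 or less) and overlap in the remaining panels.

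Outside alveolar macrophages, no difference of the interferon-induced chemokines was called. In peribronchial fibroblasts, Cxcl10 was 9.75, 4.56 and 11.0 per 10,000 in CS mice C5, D2 and D5, and 12, 5.18 and 9.72 in RA mice F1, F3 and M1 (log2 difference -0.09, standard error 0.295, adjusted p = 0.955, limma). In adventitial fibroblasts, it was 0.899, 1.58, 7.80 and 4.69 in CS mice C2, C5, D2 and D5, and 1.35 to 2.87 in RA mice, so that the CS mice lay on both sides of the RA mice (log2 difference 0.38, standard error 0.377, adjusted p = 0.585). Mesothelium held 1.71 ± 0.627 in 3 CS and 1.12 ± 0.375 in 4 RA mice (adjusted p = 0.389). CS mouse D2, which had the highest Cxcl10 in adventitial fibroblasts, also had the highest Cxcl9, with 2.14 in these cells, against at most 0.0910 in the other seven mice, and 1.01 in alveolar macrophages, against at most 0.177. In classical monocytes the highest Cxcl9 was 1.55, in RA mouse M1, and no other mouse was above 0.155. Of 98 tests of interferon genes over the 22 types, 1 was called, Ifit3 in adventitial fibroblasts, at 0.373 ± 0.0997 in CS and 0.128 ± 0.0607 in RA (log2 difference 0.28, adjusted p = 0.0303, limma). Over all tests 1.27% were called, and 181 of 9,519 genes were called higher in these fibroblasts, so that this count is not above the background.

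Of the stromal chemokines, Cxcl14 was higher in CS on average in both fibroblast types, and neither difference was called. In adventitial fibroblasts it was 4.36, 5.09, 4.69 and 4.32 per 10,000 in CS mice C2, C5, D2 and D5, and 2.19, 3.98, 3.76 and 4.14 in RA mice F1, F3, M1 and M3. The groups did not overlap, but came as near as 4.32 and 4.14 (log2 difference 0.34, standard error 0.146, adjusted p = 0.200, limma). Alveolar fibroblasts of CS mice held 6.68 ± 1.38, and those of RA mice 5.07 ± 2.23 (SD, n = 4 each, log2 difference 0.41, adjusted p = 0.322), with 2.43 in RA mouse F1 and 4.01 to 6.98 in the other RA mice. Cxcl13 in mesothelium was 0.144, 0.391 and 0.437 in CS mice C5, D2 and D5. It was 1.58 in RA mouse F3 and 0.0275 to 0.0744 in the other 3 RA mice, so that the RA mean rests on 1 mouse.

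Cxcl16 was tested in 14 types and called in 1. In gCap cells (labelled EC_capillary_B), the general capillary endothelium, it was 0.152, 0.149, 0.158 and 0.137 per 10,000 in CS mice C2, C5, D2 and D5, and 0.411, 0.284, 0.175 and 0.313 in RA mice F1, F3, M1 and M3. The groups did not overlap, and the CS mice were close to each other. The means were 0.149 ± 0.00865 and 0.296 ± 0.0975 (SD, n = 4 each, log2 difference -0.17, standard error 0.0460, adjusted p = 0.0455, limma), and 285 of 6,712 genes, 4.25%, were called lower in gCap cells. The call held in 6 of 17 alternatives. It was lost with the lane as a block (adjusted p = 0.0706), with no filter on genes (0.158), with quantile normalization (0.0755), with variances moderated without a trend (0.0694) and without any single mouse other than RA mouse M1 (0.0521 without F1, 0.0875 without F3, 0.0706 without M3, 0.105 without C2, 0.0670 without C5, 0.0931 without D2 and 0.122 without D5). The interstitial macrophage markers summed to 0.317 to 0.627 in CS and 0.517 to 0.909 in RA gCap cells, with overlap. The 13 digestion response genes were all lower in CS by mean in gCap cells, 5 of them called, and summed to 59.3 to 91.7 in CS and 115 to 156 in RA, with no overlap. For both lists, the part in the result was not tested. Their part in the result was not tested. In AT1 cells, which led among the types in the order, the Cxcl16 level was 2.84 ± 0.157 for CS and 2.48 ± 0.379 for RA mice (SD, n = 4 each, log2 difference 0.15, standard error 0.0916, adjusted p = 0.423, limma). In arterial endothelium it was 0.736 ± 0.172 and 1.11 ± 0.385 (log2 difference -0.27, adjusted p = 0.342, limma). Adventitial fibroblasts held 0.573 ± 0.203 and 0.620 ± 0.102 (adjusted p = 0.762, limma). Of 56 tests of the 4 protease and shedding genes, 2 were called, both of the sheddase Adam10 and both higher in CS, in cells where 440 of 6,712 and 306 of 11,147 genes were called higher. Adam10 differed in gCap cells (1.31 ± 0.103 and 0.931 ± 0.0490, log2 difference 0.26, adjusted p = 0.0254) and in ciliated cells (0.499 ± 0.0335 and 0.373 ± 0.0257, 0.13, adjusted p = 0.0299, limma).

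Receptors were described by the type with their highest level. Cxcr2, the receptor of Cxcl1, Cxcl2 and Cxcl5, was highest in neutrophils, at 5.73 per 10,000, which are also the main source of Cxcl2. Cxcr3, for Cxcl9 and Cxcl10, was highest in T cells (0.564), Cxcr6, for Cxcl16, in T cells (1.22) and Cxcr5, for Cxcl13, in B cells (2.53). The scavenging receptor Ackr2 was highest in aerocytes (1.88), and Ackr1, which binds several chemokines on vessels, in venous endothelium (0.332). Of 61 tests of the 13 receptors and binding proteins, 1 was called, near the 1.27% called over all tests. It lay in adventitial fibroblasts, where 112 of 9,519 genes were called lower, and is no result about the receptors as a list. Ackr3, a scavenger of Cxcl12, was lower in adventitial fibroblasts of CS mice, at 0.702 ± 0.174 against 1.32 ± 0.246 in RA (SD, n = 4 each, log2 difference -0.44, adjusted p = 0.0363, limma). In neutrophils, Cxcr2 was 5.82 in CS and 5.65 in RA (adjusted p = 0.966).

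Over all 22 types, 186 tests of the inducers and NF-kB genes gave 3 calls higher and 6 lower in CS, where 1.27% of all tests were called, with a median log2 difference of -0.05. The calls beside the 4 in alveolar macrophages were split, and lay in types with many calls, 725 of 6,712 genes in gCap and 519 of 11,147 in ciliated cells. In gCap cells, Nfkbia (5.10 ± 0.191 in CS and 8.48 ± 0.932 in RA, adjusted p = 0.0156, limma) and Icam1 (3.03 ± 0.394 and 4.35 ± 0.525, adjusted p = 0.0359) were lower, and Nfkb1 was higher (2.74 ± 0.0996 and 2.05 ± 0.253, adjusted p = 0.0371). In ciliated cells, where Cxcl17 was higher, Icam1 (0.756 ± 0.121 and 0.325 ± 0.147, adjusted p = 0.0168) and Nfkb1 (1.30 ± 0.101 and 0.975 ± 0.104, adjusted p = 0.0355) were higher too. None of 12 tests of the other CXC ligands was called by limma, with 6 at an unadjusted p under 0.05, 4 with a positive and 2 with a negative log2 difference. Over all tests, 15.2% had an unadjusted p under 0.05, 8.89% with a positive and 6.29% with a negative difference. Cxcl12 was 5.59 ± 1.02 in CS and 3.23 ± 1.19 in RA gCap cells (SD, n = 4 each, adjusted p = 0.061, limma), and 1.2 ± 0.796 and 0.441 ± 0.0385 in peribronchial fibroblasts (n = 3 each, adjusted p = 0.472). Pf4, the platelet chemokine, was 1.74 ± 2.58 and 0.0435 ± 0.0826 in alveolar macrophages (n = 4 each, adjusted p = 0.263, limma), and 0.0356 ± 0.024 and 0.00564 ± 0.00306 in goblet cells (adjusted p = 0.33). Cxcl3, a close relative of Cxcl1 and Cxcl2, was 0.240 in CS and 1.03 in RA neutrophils (adjusted p = 0.206), and 0.107 and 0.407 in alveolar macrophages (adjusted p = 0.369).

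The genes whose levels over the 22 types were most like those of each chemokine were looked up among 6,848 genes, as Pearson's r of log2(level + 1). The points of such an r share their libraries, and it is given as a description. For Cxcl2 they were C5ar1 (r = 0.968), Taldo1 (0.964) and Ccl6 (0.951), for Cxcl1 Ccl7 (0.844), Pi16 (0.826) and Tnfaip6 (0.788), and for Cxcl5 Fut9 (0.991), Gp2 (0.990) and Clca1 (0.988). Cxcl15 went with Chia1 and Pla2g1b (both 0.981), Cxcl17 with Gpx2 and Slc44a4 (both 0.987), and Cxcl14 with Meox2 (0.997) and C7 (0.996). Cxcl13 went with Nkain4 (0.995), Aldh1a2 (0.992) and Ap4e1 (0.986), all highest in mesothelium among the 22 types. Interstitial macrophages, too few to be ordered, are not among these types. For Cxcl10 the first was Igf1 (0.902), for Cxcl16 Fads3 (0.885) and for Cxcl9 Fn1 (0.886). Among the chemokines themselves, the highest values were those of Cxcl9 with Cxcl14 (0.676) and with Cxcl1 (0.671), and of Cxcl1 with Cxcl10 and Cxcl5 with Cxcl17 (both 0.647). The neighbours Cxcl1 and Cxcl2 reached 0.456, and Cxcl1 and Cxcl5 -0.10.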

How the data were processed

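The deposited matrix held estimated counts, which the authors made with STARsolo (STAR 2.7.3a, GRCm38.p6) from exonic and intronic reads and corrected for ambient RNA with SoupX, so that 1.28% of values were whole within 1e-06. Whether strand was used is not given in the sources used here. The authors also deposited cell types and the percent of mitochondrial transcripts per cell. Of 41,106 cells, 1,025 multiplets and 7 cell cycle cells were left out. Cells were scaled to 10,000 and averaged per mouse and type (at least 20 cells). Groups were compared with limma 3.58.1 (R 4.3.3) on log2(mean + 1), which understates changes of low genes, with Benjamini-Hochberg adjustment within a type, in the 22 types with at least 3 mice per group. Single values were tested by exact permutation over mice, the replicates. The limma step was tested on simulated data.

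The members and gene lists were chosen with earlier results of these data known. Described were the 3 tested types with the highest level of each member, pairs with an adjusted p under 0.05, and pairs at 0.1 or more without overlap of groups, and some further pairs were named after their values were seen. The main ones are given by mouse and the rest by mean and SD or range. The lane, which held 1 CS and 1 RA mouse, was used as a replicate block in an alternative. Other pseudocounts, filters and scalings, labelled sex as a term and each mouse left out were also tried. The sex labels of the CS mice go against their transcripts, so that this term does not stand for sex. The subsets of macrophages and ciliated cells were chosen after seeing the data.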

Additional observations from a re-analysis of the deposited data

Results flagged for a closer look

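In 7 of 58 groups of 4 mice, the highest mouse stood apart from the other 3 by Dixon's criterion. Its chance rate of about 1 of 20 groups holds for normally distributed values. The levels here cannot fall below 0 and were at or near 0 in several flagged groups, so that their chance rate is not known. Of the 7 groups, 3 were flagged for CS mouse D2. Cxcl9 was 2.14 per 10,000 in its adventitial fibroblasts (at most 0.0910 in the other CS mice) and 1.01 in its alveolar macrophages (at most 0.0804), and Cxcl13 was 0.661 in its adventitial fibroblasts (at most 0.00781). Cxcl17 in goblet cells was 4.77 in CS mouse C2 and 3.57 to 3.77 in the other CS mice. Among RA mice, Cxcl13 in mesothelium was 1.58 in F3 (0.0275 to 0.0744 in the others), Cxcl2 in AT1 cells was 0.414 in M1 (0.0891 to 0.0982), and Cxcl9 in classical monocytes was 1.55 in M1 (at most 0.155).

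The difference between CS and RA mice was compared between the leading pair of cell types of each of the 10 chemokines, and 3 had an exact permutation p of 0.0286, the smallest that 4 against 4 mice allow (adjusted p = 0.0952 each). On the log2 scale, the difference of Cxcl2 was -1.48 in alveolar macrophages and -0.67 in neutrophils, 0.81 apart. The difference of Cxcl17 in ciliated cells exceeded that in goblet cells by 0.43, and that of Cxcl5 in goblet cells minus that in AT2 cells was -0.91. None of the 3 passed the threshold after adjustment. With 10 tests, 3 genes at this smallest p could not pass it, so that nothing follows from the adjusted values.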

How the results depend on the processing

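Of 473 alternative values, 412 kept their direction and side of the threshold or their size. The count of calls over all genes and types, 2,208, was 221 with no filter on genes, 667 with the lane as a replicate block, and 455 to 2,205 with 1 mouse left out (490 without C2, 1,350 without C5, 697 without D2, 455 without D5, 825 without F3 and 1,065 without M3). The 5 called pairs of a chemokine and a type became 3 with a filter at 25% of cells, 1 with no filter, 2 with at least 50 cells, 3 with eBayes without a trend, 4 with the lane block, and 1 to 5 with 1 mouse left out (1 without C2, 2 without D2, and 3 without C5, D5 or M3). Alveolar macrophages could not be tested at 50 cells, since each CS mouse had 40 to 49 of them. Cxcl16 in gCap cells, found in 5.54% to 13.9% of cells per mouse, could not pass the filter at 25%. The block ended the calls of Cxcl17 in ciliated cells and Cxcl16 in gCap cells and added Cxcl1 in peribronchial fibroblasts.

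Uncalled differences that changed sign were those of Cxcl10 in peribronchial fibroblasts (0.0094 with quantile normalization, 0.26 without D2, 0.14 without F1, and at the lowest -0.40 without F3) and in adventitial fibroblasts (-0.0033 without D2, at the highest 0.73 without C2), Cxcl15 in AT2 cells (0.0097 without C2, at the lowest -0.14 without C5), Cxcl17 in goblet cells (0.094 with summed counts, and with 1 mouse left out 0.021, 0.011, 0.000126, 0.0091 and 0.00013 without C5, D2, D5, F1 and M1, at the lowest -0.092 without C2) and Cxcl2 in the cells labelled Mast (-0.045 without M1, -0.019 without M3, at the highest 0.44 without F3). The leading type stayed the same for 9 of 10 chemokines with summed counts and for 7 with at least 5 cells (interstitial macrophages then led for Cxcl10, Cxcl13 and Cxcl16), and that of Cxcl9 turned from adventitial fibroblasts to classical monocytes with summed counts and without D2. The cause of these changes was not tested. Few cells per mouse limit the levels in alveolar macrophages, goblet cells and peribronchial fibroblasts.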
